A study of Mus musculus with 6 samples.

Results

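Total RNA of mouse small intestine was measured for 10 genes of major histocompatibility complex (MHC) class I antigen presentation, found by symbol among the 45777 genes of a read count table. They are the classical heavy chain genes H2-K1 and H2-D1, the nonclassical heavy chain genes H2-Q1, H2-Q2, H2-Q4, H2-T3 and H2-T23, the light chain gene B2m, the transactivator gene Nlrc5 and the peptide transporter gene Tap1. Of the 6 libraries, 3 carry the label of PKCzeta overexpression (replicates 2-1, 4-1 and 4-2) and 3 are controls titled GFP, for green fluorescent protein (replicates 1-1, 1-4 and 3-1). PKCzeta, the product of Prkcz, belongs to the atypical protein kinases C. The titles of both groups begin with the letters DIO, which the labels do not explain. The strain, age and sex of the mice, the vector and the part of the small intestine are not given in the sources used here. Replicates 4-1 and 4-2 share a first number, as do 1-1 and 1-4, and its meaning is not given. Whether each library comes from its own mouse is not stated. The p-values set the group difference against the spread between these samples only, and take each library as independent. Libraries of a group that share a mouse would make them too small.

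Class I molecules show peptides from inside the cell on its surface. A heavy chain binds beta-2 microglobulin, the product of B2m, and a peptide that the TAP transporter has moved into the endoplasmic reticulum. The classical chains present to CD8 T cells and are made by nearly every nucleated cell. The nonclassical chains have narrower roles, and 2 of them are well known in the gut. H2-T3 encodes the thymus leukaemia antigen TL, which is found on small intestinal epithelium and binds CD8 alpha homodimers on intraepithelial lymphocytes, and H2-T23 encodes Qa-1, which shows signal peptides to CD94/NKG2 receptors. Nlrc5 enters the nucleus and switches on class I genes through a promoter module with S, X and Y boxes. Interferon response elements and NF-kB sites lie in the same region of the classical genes.

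The promoters of 8 of the 10 members were matched in the RefSeq promoter table (GRCm38.p6, the assembly that mm10 names), and 5 of these are shown. H2-Q1 and Nlrc5 had no entry. Each sequence is the 250 bases before an annotated start, 5′ to 3′ on the gene's strand. They span chr17:34000334-34000583 (minus strand) for H2-K1, chr17:35262844-35263093 (plus) for H2-D1, chr2:122147437-122147686 (plus) for B2m, chr17:35379367-35379616 (plus) for H2-Q4 and chr17:35342057-35342306 (plus) for H2-Q2. For H2-K1, with 2 windows in the table, the more downstream one is given. It lies inside the gene's span of 33996012 to 34000619, so its start is not the outermost one. The other windows end next to their gene's span. Capitals mark matches, on either strand, to the NF-kB site GGGGATTCCCC and the interferon response core AGTTTCNNTT, both taken from the H2-K1 window, and to ATTGG, the inverted CCAAT (Y) box. They also mark TGACG, the X2 half-site, where 20 bases lie between it and an ATTGG. The patterns were chosen after these windows had been read.
H2-K1: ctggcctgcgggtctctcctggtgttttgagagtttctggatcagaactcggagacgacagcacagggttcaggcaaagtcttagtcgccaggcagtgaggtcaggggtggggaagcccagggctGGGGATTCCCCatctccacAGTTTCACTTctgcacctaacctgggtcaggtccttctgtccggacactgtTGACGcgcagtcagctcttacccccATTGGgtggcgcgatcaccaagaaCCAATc
H2-D1: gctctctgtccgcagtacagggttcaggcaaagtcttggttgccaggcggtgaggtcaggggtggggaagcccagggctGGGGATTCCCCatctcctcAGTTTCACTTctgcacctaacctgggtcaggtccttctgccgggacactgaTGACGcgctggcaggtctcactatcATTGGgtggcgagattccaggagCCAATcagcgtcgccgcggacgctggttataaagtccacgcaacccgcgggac
B2m: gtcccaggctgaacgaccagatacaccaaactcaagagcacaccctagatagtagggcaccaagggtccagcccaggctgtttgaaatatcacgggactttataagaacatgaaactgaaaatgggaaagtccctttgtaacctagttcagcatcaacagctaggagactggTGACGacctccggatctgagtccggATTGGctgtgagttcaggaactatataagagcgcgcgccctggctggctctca
H2-Q4: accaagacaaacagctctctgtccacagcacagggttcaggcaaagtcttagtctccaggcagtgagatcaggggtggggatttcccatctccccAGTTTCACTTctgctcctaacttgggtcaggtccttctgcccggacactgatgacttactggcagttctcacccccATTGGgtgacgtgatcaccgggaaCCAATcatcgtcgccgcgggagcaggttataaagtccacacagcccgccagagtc
H2-Q2: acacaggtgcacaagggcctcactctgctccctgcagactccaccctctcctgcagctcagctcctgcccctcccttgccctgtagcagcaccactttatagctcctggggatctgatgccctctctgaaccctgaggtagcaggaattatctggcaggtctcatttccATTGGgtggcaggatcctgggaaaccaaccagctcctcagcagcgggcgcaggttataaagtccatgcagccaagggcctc

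H2-D1 held all 4 patterns of H2-K1, in the same order. Positions count from the start after each window, which for H2-K1 lies inside the gene's span. The NF-kB site lay at -125 to -115 in H2-K1 and at -171 to -161 in H2-D1. B2m shared with them the TGACG and ATTGG pair at the same spacing, at -78 to -49, and held neither of the other patterns in these letters. Among the nonclassical genes with an entry, H2-Q4 and H2-T3 held the interferon response core, while H2-Q2 and H2-T23 held only ATTGG (H2-T23 on the reverse strand). The spaced pair was found in 0.0913% of the 32851 promoter windows of the table, the NF-kB site in 0.0304%, the interferon core in 1.48% and ATTGG in 33.8%. The ATTGG of the spaced pair is counted in the last of these too. A match describes letters only.

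Since these genes are close relatives, the transcript sequences were searched for stretches shared with another gene, using the longest protein-coding GENCODE M21 transcript of each member. These were compared with all transcripts of other genes. Of all windows of 100 bases, 0% were shared for the longest transcripts of H2-K1, H2-Q2, H2-T3, B2m, Nlrc5 and Tap1. The shared part was 2.66% for H2-Q4, 4.64% for H2-D1, 7.28% for H2-T23 and 13.1% for H2-Q1, whose main partner was H2-Q2 (5.51%). Those stretches lie in other transcripts of H2-Q2, so the values given for H2-Q2 itself leave them out and are too low for the gene. With windows of 50 bases it was 8.74% for H2-Q2, 8.79% for H2-K1, 14.3% for H2-D1, 22.9% for H2-Q1, 24.3% for H2-Q4 and 28.8% for H2-T23. The read length and how reads with several matches were counted are not given in the sources used here, so the split of reads is uncertain for the heavy chains with shared stretches. Of annotated genes that overlap a member, none had more than 64 reads in any library (A930015D03Rik, over H2-T23, which had at least 14866).

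Total counts ran from 77573133 to 87572356 in PKCzeta libraries and from 85411847 to 93742978 in GFP libraries. Prkcz itself was not higher with the PKCzeta label, at 79.9 ± 21.6 CPM in PKCzeta libraries and 88.7 ± 15.8 CPM in GFP libraries (SD, n = 3 each; log2 fold change -0.15, SE 0.24, edgeR adjusted p 0.950), so the groups are named by label. CPM here are read counts scaled to one library size with edgeR's TMM factors. These factors were 1.00, 1.05 and 1.19 in PKCzeta replicates 2-1, 4-1 and 4-2. In GFP replicates 1-1, 1-4 and 3-1 they were 0.929, 0.974 and 0.881, so the factors themselves did not overlap between the groups. A positive log2 fold change means higher with the PKCzeta label, and SE is its standard error. At an adjusted p of 0.05, 0 of 18456 genes passed in edgeR (0.0%), while 1012 (5.48%) had an unadjusted p under 0.05. DESeq2 called 87 genes (0.479%), none of them a member.

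No class I member passed the test, and 8 of the 10 had lower values with the PKCzeta label. Lower values held for both classical chains, 4 of 5 nonclassical chains, B2m and Tap1. Nlrc5, the transactivator, stood higher, and H2-Q4 was about level. The median log2 fold change of the 10 members was -0.49, against 0.035 for all genes tested, of which 45.8% lay below 0. For 6 members the CPM of the groups did not overlap, all lower with the PKCzeta label, where 5.66% of all genes tested were lower without overlap. On the higher side 0 members did so, beside 4.72% of all genes. On deposited TPM 4 members were lower without overlap (2.0% of all genes) and 1, Nlrc5, was higher (8.72% of all genes). An unadjusted p under 0.05 was given by edgeR for 3 members on the lower side (background 3.07%) and for 1 on the higher side (background 2.41%). The smallest adjusted p of a member was 0.858. The members were chosen with earlier results of these data known, so these counts are a description. In bulk tissue, fewer cells of a type and less RNA per cell cannot be told apart.

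**Figure D1:**
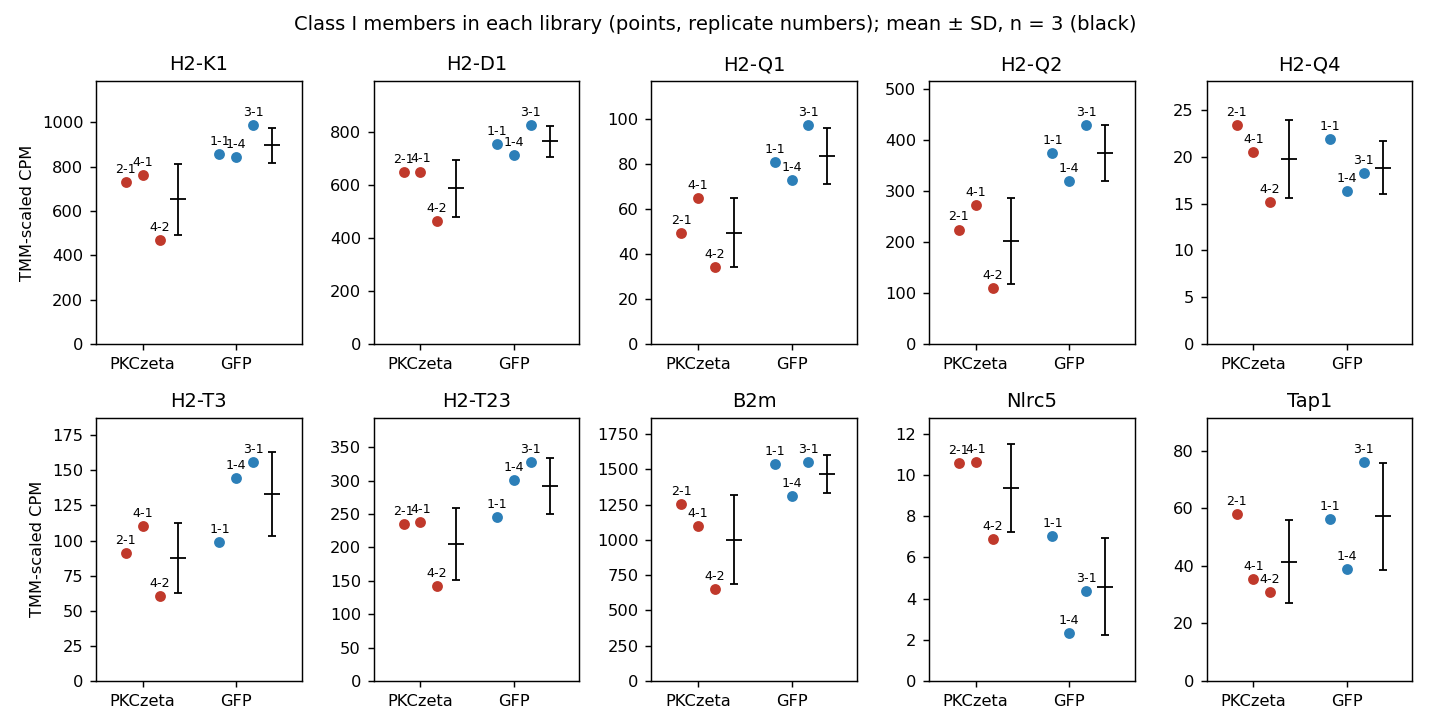
TMM-scaled CPM of the 10 members in each library, with PKCzeta left of GFP, replicate numbers beside the points and mean ± SD (n = 3) in black. In 9 of the 10 panels PKCzeta replicate 4-2 is the lowest point, and in 8 GFP replicate 3-1 is the highest.

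The classical chains were the most abundant heavy chains. H2-K1 (Entrez 14972, mm10 chromosome 17 from 33996012 to 34000619) stood at 730, 761 and 467 CPM in PKCzeta replicates 2-1, 4-1 and 4-2, against 857, 843 and 988 CPM in GFP replicates 1-1, 1-4 and 3-1. The groups did not overlap in CPM, and replicate 4-2 lay well below the other PKCzeta libraries. On deposited TPM they overlapped, with 521, 624.5 and 451 TPM in PKCzeta libraries and 613, 638 and 645 TPM in GFP libraries. The means were 653 ± 161 CPM with the PKCzeta label and 896 ± 79.96 CPM with the GFP label (SD, n = 3 each). Between the groups the log2 fold change was -0.46 (SE 0.22, with 95% bounds of -0.97 and 0.056, edgeR adjusted p 0.917). H2-D1 (Entrez 14964, chromosome 17 from 35263094 to 35267497) had 648, 649.8 and 463.5 CPM in PKCzeta libraries and 752, 712 and 825 CPM in GFP libraries, in the same order. Its log2 fold change was -0.38 (SE 0.19, with 95% bounds of -0.82 and 0.064, edgeR adjusted p 0.917). Again the groups did not overlap, with replicate 4-2 lowest.

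The H2-Q genes went apart. H2-Q2 (Entrez 15013, chromosome 17 from 35342307 to 35346764) had the lowest fold change of the members, with 225, 273 and 109.5 CPM in PKCzeta libraries and 375, 319 and 429.5 CPM in GFP libraries. The groups did not overlap, and the log2 fold change was -0.89 (SE 0.32, with 95% bounds of -1.62 and -0.15, unadjusted p 0.0237, edgeR adjusted p 0.870). H2-Q1 (Entrez 15006, chromosome 17 from 35320525 to 35328142) came next, with 49.5, 64.8 and 34.0 CPM in PKCzeta libraries and 80.8, 73.0 and 97.3 CPM in GFP libraries. It too was without overlap, at a log2 fold change of -0.76 (SE 0.24, with 95% bounds of -1.32 and -0.19, unadjusted p 0.0146, edgeR adjusted p 0.858). H2-Q4 (Entrez 15015, chromosome 17 from 35379617 to 35384674) had 23.4, 20.5 and 15.2 CPM in PKCzeta libraries and 21.9, 16.4 and 18.2 CPM in GFP libraries, whose range lies inside that of the PKCzeta libraries. Its log2 fold change was 0.067 (SE 0.22, with 95% bounds of -0.44 and 0.57, edgeR adjusted p 0.976). The sign of that value depended on the libraries, being -0.024 without GFP replicate 1-4 and -0.105 without PKCzeta replicate 2-1.

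The T region genes, with the best known roles in the gut, were lower in most PKCzeta libraries. H2-T3 (Entrez 15043, chromosome 17 from 36185571 to 36190151) had 90.8, 111 and 60.8 CPM in PKCzeta libraries and 99.1, 144 and 156 CPM in GFP libraries. Here the groups overlapped, because GFP replicate 1-1 lay below PKCzeta replicate 4-1. The log2 fold change was -0.61 (SE 0.26, with 95% bounds of -1.21 and -0.011, unadjusted p 0.0467, edgeR adjusted p 0.908). H2-T23 (Entrez 15040, chromosome 17 from 36029977 to 36032701) had 235, 238 and 142 CPM in PKCzeta libraries and 246, 300.4 and 328.5 CPM in GFP libraries. The groups did not overlap, by a margin of 238 against 246 CPM, and the log2 fold change was -0.51 (SE 0.23, with 95% bounds of -1.04 and 0.023, edgeR adjusted p 0.917). On deposited TPM the groups overlapped, with 212, 246 and 173 TPM in PKCzeta libraries and 221, 288 and 271 TPM in GFP libraries.

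B2m (Entrez 12010, chromosome 2 from 122147687 to 122153082), whose product every class I heavy chain of this list pairs with, had 1256, 1099 and 652 CPM in PKCzeta libraries. In GFP libraries it had 1540, 1312 and 1555 CPM. Without overlap between the groups, the log2 fold change was -0.55 (SE 0.26, with 95% bounds of -1.15 and 0.050, edgeR adjusted p 0.917). Tap1 (Entrez 21354, chromosome 17 from 34187556 to 34197225), one chain of the peptide transporter, had 57.8, 35.3 and 30.9 CPM in PKCzeta libraries and 56.3, 38.9 and 76.2 CPM in GFP libraries. Its groups overlapped, with a log2 fold change of -0.47 (SE 0.31, with 95% bounds of -1.18 and 0.25, edgeR adjusted p 0.917).

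Nlrc5 (Entrez 434341, chromosome 8 from 94434335 to 94527272) had the highest fold change of the members, and only H2-Q4, near 0, was also above 0. It had 10.6, 10.7 and 6.89 CPM in PKCzeta libraries, against 7.05, 2.33 and 4.37 CPM in GFP libraries. The groups touched at one point, since PKCzeta replicate 4-2 lay just below GFP replicate 1-1. The means were 9.37 ± 2.15 CPM with the PKCzeta label and 4.58 ± 2.37 CPM with the GFP label (SD, n = 3 each). That gave a log2 difference of 1.03 (SE 0.40, with 95% bounds of 0.104 and 1.96, unadjusted p 0.0334, edgeR adjusted p 0.877). In reads these levels were 919, 867 and 720 in PKCzeta libraries and 559, 204 and 361 in GFP libraries, so counting error is small beside the spread between libraries. On deposited TPM the groups did not overlap, with 1.66, 1.92 and 1.46 TPM in PKCzeta libraries and 1.10, 0.384 and 0.630 TPM in GFP libraries (8.72% of all genes tested were higher without overlap on that scale).

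**Figure D2:**
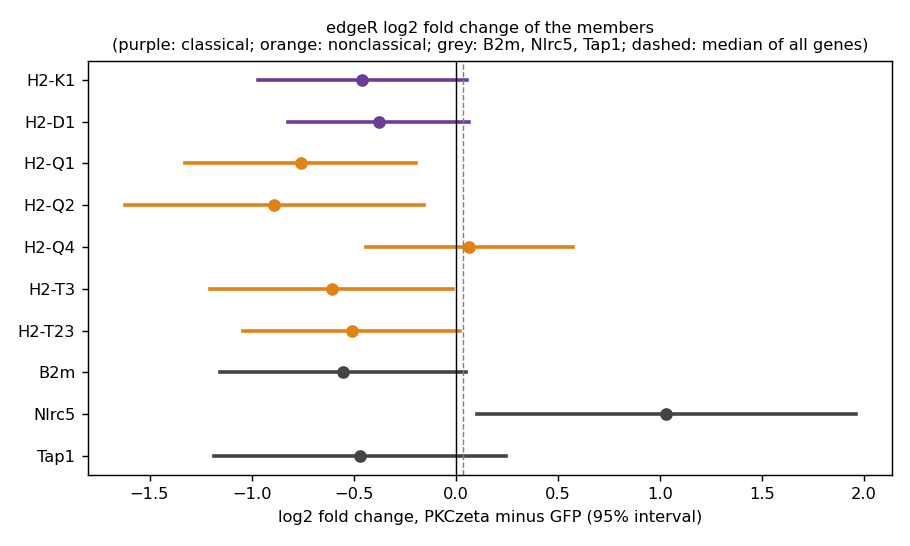
edgeR log2 fold change (PKCzeta minus GFP) of the 10 members with 95% intervals, the dashed line being the median of all genes tested at 0.035. The intervals of H2-Q1, H2-Q2 and H2-T3 lie below 0 and that of Nlrc5 above it, and no member passed the adjusted p.

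Levels of different genes were compared per length, in the deposited TPM. The order was the same in all 6 libraries for each neighbouring pair. B2m led with 1568 ± 306 TPM in PKCzeta libraries and 2010 ± 105 TPM in GFP libraries (SD, n = 3 each). H2-K1 followed with 532 ± 87.2 and 632 ± 16.7 TPM, and H2-D1 with 461 ± 44.3 and 516 ± 2.12 TPM, in PKCzeta and GFP libraries. H2-T23 (210.3 ± 36.7 and 260.1 ± 34.7 TPM) and H2-Q2 (134 ± 48.9 and 217 ± 16.1 TPM) were the leading nonclassical chains. H2-T3, H2-Q1, Tap1, H2-Q4 and Nlrc5 came after them, with means over the 6 libraries of 63.2, 39.4, 20.7, 13.6 and 1.19 TPM. The ranges over libraries overlapped between H2-K1 and H2-D1, between H2-T23 and H2-Q2, between H2-T3 and H2-Q1 and between H2-Q1 and Tap1, so those neighbours differ by less than the spread between libraries although their order held within each library.

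Classical and nonclassical chains can be set against each other within a library, which does not depend on how libraries are scaled. H2-K1 and H2-D1 made up 68.8%, 67.1% and 71.9% of the TPM of the 7 heavy chain genes in PKCzeta replicates 2-1, 4-1 and 4-2, against 67.0%, 64.8% and 64.4% in GFP replicates 1-1, 1-4 and 3-1. The means were 69.2 ± 2.43% with the PKCzeta label and 65.4 ± 1.40% with the GFP label (SD, n = 3 each), a difference of 3.83 percentage points, and 2.52 without PKCzeta replicate 4-2. The groups do not overlap, but PKCzeta replicate 4-1 and GFP replicate 1-1 are almost equal. H2-Q2 took 9.43%, 10.9% and 7.10% in PKCzeta libraries and 13.1%, 11.2% and 12.8% in GFP libraries, the lower share with the PKCzeta label in all 3. The share of H2-Q4 was higher instead, at 1.11%, 0.923% and 1.11% in PKCzeta libraries and 0.861%, 0.646% and 0.612% in GFP libraries. H2-T23 (14.6 ± 0.491% and 14.8 ± 1.52%) and H2-T3 (3.76 ± 0.294% and 4.07 ± 0.773%) had overlapping shares in PKCzeta and GFP libraries.

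**Figure D3:**
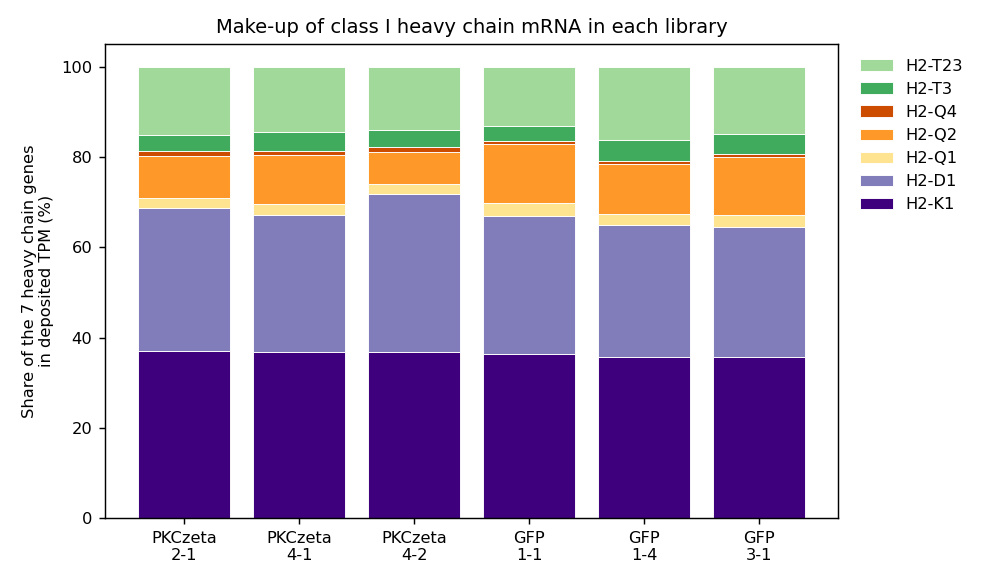
Share of each heavy chain gene in the summed deposited TPM of the 7 heavy chain genes, 1 bar per library, PKCzeta left of GFP. H2-K1 and H2-D1 at the bottom fill 67.1% to 71.9% of the PKCzeta bars and 64.4% to 67.0% of the GFP bars, and the H2-Q2 segment is thinner in the PKCzeta bars.

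On the log2 scale the mean fold change was -0.42 for the 2 classical chains and -0.54 for the 5 nonclassical chains, a contrast of 0.122. It was 0.0751 without PKCzeta replicate 4-2 and 0.196 without PKCzeta replicate 4-1. The same contrast per library (mean log2 CPM of classical minus nonclassical members) was 2.95, 2.83 and 3.09 in PKCzeta libraries and 2.87, 2.81 and 2.78 in GFP libraries, with overlap between the groups. Against the H2-Q genes alone the contrast was 0.109, and against H2-T3 and H2-T23 alone it was 0.141. No test is given for these, as the members were chosen with results known. The ratio of B2m to summed heavy chain TPM overlapped between the groups, at 1.24, 1.03 and 0.994 in PKCzeta libraries and 1.27, 1.08 and 1.09 in GFP libraries.

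The other nonclassical heavy chains were mixed. Of 14 genes listed, 10 were tested, 7 of them higher and 3 lower (median log2 fold change 0.118, where 45.8% of all genes tested lay below 0), and 0 passed in edgeR. H2-Bl, at 1.18 ± 0.077 CPM in PKCzeta libraries and 2.12 ± 0.331 CPM in GFP libraries (SD, n = 3 each), was lower without overlap (log2 fold change -0.85, SE 0.28, edgeR adjusted p 0.866), and shared stretches with H2-Q2. H2-T24 (log2 fold change 1.10, SE 0.44, edgeR adjusted p 0.877) and H2-T10 (0.450, SE 0.34, edgeR adjusted p 0.917) had overlapping groups. PKCzeta replicate 2-1 was highest for H2-T10, whose value was 0.0606 without it. H2-M5 and H2-M11 had 0 reads in all 6 libraries. Among class I-like genes outside the H2 complex, 5 of 7 were tested, 4 were higher and 0 passed in edgeR. Procr, the endothelial protein C receptor, had 4.43, 7.17 and 17.3 CPM in PKCzeta libraries and 2.84, 4.78 and 1.22 CPM in GFP libraries, with overlap. Its log2 fold change was 1.71 (SE 0.62, edgeR adjusted p 0.870), and 0.99 without PKCzeta replicate 4-2. Mr1, which presents vitamin B metabolites, had 0.380 (SE 0.31), and Cd1d1, which presents lipids, had 0.340 (SE 0.31), both overlapping (edgeR adjusted p 0.917). Without PKCzeta replicate 2-1 they had 0.187 and 0.0966.

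In the list of peptide loading and trimming, which includes Tap1, 8 of 10 genes were lower (median log2 fold change -0.16) and 0 passed in edgeR. Of all genes tested 45.8% lay below 0, and 5.66% were lower without overlap in CPM. Tapbp, encoding tapasin, which bridges TAP and the heavy chain, had 169, 144.5 and 103 CPM in PKCzeta libraries and 190, 203 and 237 CPM in GFP libraries. These groups do not overlap, and the log2 fold change was -0.60 (SE 0.21, edgeR adjusted p 0.867). Tapbpl, a tapasin relative that edits peptides, had -0.32 (SE 0.18) without overlap, and Tap2, the partner chain of Tap1, had -0.35 (SE 0.21) with overlap.

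The immunoproteasome, whose subunits replace those of the standard proteasome and favour class I peptides, was lower in 5 of 6 genes (median log2 fold change -0.22), with 0 past the edgeR test. Of all genes tested 45.8% lay below 0, and 5.66% were lower without overlap in CPM. Psmb9 had -0.39 (SE 0.20) and the activator gene Psme2 had -0.25 (SE 0.15), both without overlap between the groups in CPM. Psmb8 (-0.19, SE 0.21), Psmb10 (-0.26, SE 0.16) and Psme1 (-0.15, SE 0.15) overlapped, and Psme2b, a copy close to Psme2, had 0.574 (SE 0.62). The subunits they replace gave log2 fold changes near 0, with 0.047 (SE 0.19) for Psmb5, -0.059 (SE 0.16) for Psmb6 and 0.094 (SE 0.15) for Psmb7. In edgeR these 9 genes had adjusted p from 0.917 upwards. On log2(TPM + 1), where the median of all genes was 0.141, Psmb8 and Psme1 were slightly above 0, at 0.0041 and 0.0742. On that scale Psme2 had -0.0312, Psmb10 had -0.0301 and Psmb9 had -0.169.

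Of 13 class I regulators, Nlrc5 among them, 9 were higher and 4 lower (median log2 fold change 0.107), and 0 passed in edgeR. For comparison, 45.8% of all genes tested lay below 0. After Nlrc5 the smallest p belonged to Rfxank, a subunit of the RFX complex that binds the X box, at 8.38 ± 1.23 CPM in PKCzeta libraries and 11.2 ± 1.38 CPM in GFP libraries (SD, n = 3 each; log2 fold change -0.42, SE 0.22, edgeR adjusted p 0.917). Nfkb1, an NF-kB subunit, had 0.318 (SE 0.19, edgeR adjusted p 0.917). In the interferon-gamma list 15 of 16 genes were tested, 10 were higher, 5 were lower and 0 passed in edgeR, while DESeq2 called Gbp2, Gbp3 and Gbp5 (adjusted p 0.00772, 0.0274 and 0.0153). In edgeR 4 of the higher ones had an unadjusted p under 0.05 (2.41% of all genes tested). Gbp3, Gbp2 and Gbp5, interferon-induced GTPases, did not overlap between the groups. They were named for the smallest p of that list, which favours groups without overlap. In CPM 3 of the 15 tested genes were higher without overlap, beside 4.72% of all genes tested. Gbp2 stood at 50.1, 167 and 73.8 CPM in PKCzeta libraries and at 32.6, 28.2 and 26.7 CPM in GFP libraries. PKCzeta replicate 4-1 was highest for it, and without that library its log2 fold change of 1.73 (SE 0.41) became 1.09.

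Receptors that read class I molecules, with their relatives and Cd3e of the T cell receptor complex, were higher in 9 of 10 tested genes (median log2 fold change 0.442). In edgeR 0 passed, while DESeq2 called Pirb (adjusted p 0.0254). Pirb, an inhibitory receptor of myeloid and B cells that binds class I, had 4.40, 7.72 and 4.77 CPM in PKCzeta libraries and 2.45, 2.40 and 2.09 CPM in GFP libraries. The groups did not overlap (log2 fold change 1.28, SE 0.29, edgeR adjusted p 0.858). Lilrb4a, a myeloid receptor, had a log2 fold change of 1.47 (SE 0.44; 0.876 without PKCzeta replicate 4-1), and Pira2 had 1.05 (SE 0.41), both without overlap. Pirb, Lilrb4a and Pira2 were named for the smallest p of their list, which favours groups without overlap. In the list 4 of 10 tested genes were higher without overlap in CPM, beside 4.72% of all genes tested. Of all genes tested 45.8% lay below 0. Pirb and Pira2 belong to a family of near-identical genes, so their split of reads is uncertain. Of the neutrophil markers, 7 of 7 tested genes had a fold change above 0. Their summed level was 7.35, 54.1 and 32.1 CPM in PKCzeta libraries and 6.62, 7.69 and 2.40 CPM in GFP libraries, so PKCzeta replicate 2-1 lay within the GFP range. Their part in these receptor values was not tested.

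The genes whose levels followed the class I chains most closely included a pair of brush border enzymes. Over the 6 libraries and 13793 genes with a mean of at least 1 CPM, the highest Pearson r with the mean log2 CPM of H2-K1 and H2-D1 was 0.997 for Enpep and 0.995 for Dpp4, both brush border peptidases, and 0.994 for Rdh9, a retinol dehydrogenase. With the mean of the 5 nonclassical members the same 3 genes came first, with Rdh9 at 0.998, Enpep at 0.996 and Dpp4 at 0.995. With so few libraries many genes score high, and 437 and 396 genes were above 0.9. Enpep had 3541, 3880 and 2196 CPM in PKCzeta libraries and 4507, 4172 and 5162 CPM in GFP libraries. Replicate 4-2 was lowest and GFP replicate 3-1 highest, as for most class I members, which follows from how Enpep was picked.

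Enterocyte markers, Dpp4 among them, were lower in the same group. Of all genes tested 45.8% lay below 0. Of 14 markers, 13 were lower (median log2 fold change -0.88), and their summed level was 27470, 34900 and 15630 CPM in PKCzeta libraries and 47560, 42990 and 38970 CPM in GFP libraries, with 0 markers at 0. Among GFP libraries replicate 3-1 had the lowest sum here, though it was highest for most class I members. General epithelial markers were lower in 7 of 9 (sums of 12150 to 13250 CPM in PKCzeta libraries and 12750 to 16940 CPM in GFP libraries). Pan-leukocyte markers were higher in 6 of 6 (126.8 to 445 CPM in PKCzeta libraries and 85.1 to 217 CPM in GFP libraries). T cell markers had sums of 36.0 to 69.7 CPM in PKCzeta libraries and 42.8 to 74.4 CPM in GFP libraries, higher in 7 of 12. Smooth muscle markers were lower in 8 of 8. Goblet cell markers were lower in 5 of 8, with sums of 13660 to 16170 CPM in PKCzeta libraries and 16240 to 20780 CPM in GFP libraries. Higher were macrophage and dendritic cell markers in 10 of 12, B and plasma cell markers in 6 of 9 and Paneth cell markers in 7 of 8. Endothelial and fibroblast markers were each lower in 4 of 8. The part of these cell types in the class I values was not tested.

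**Figure D4:**
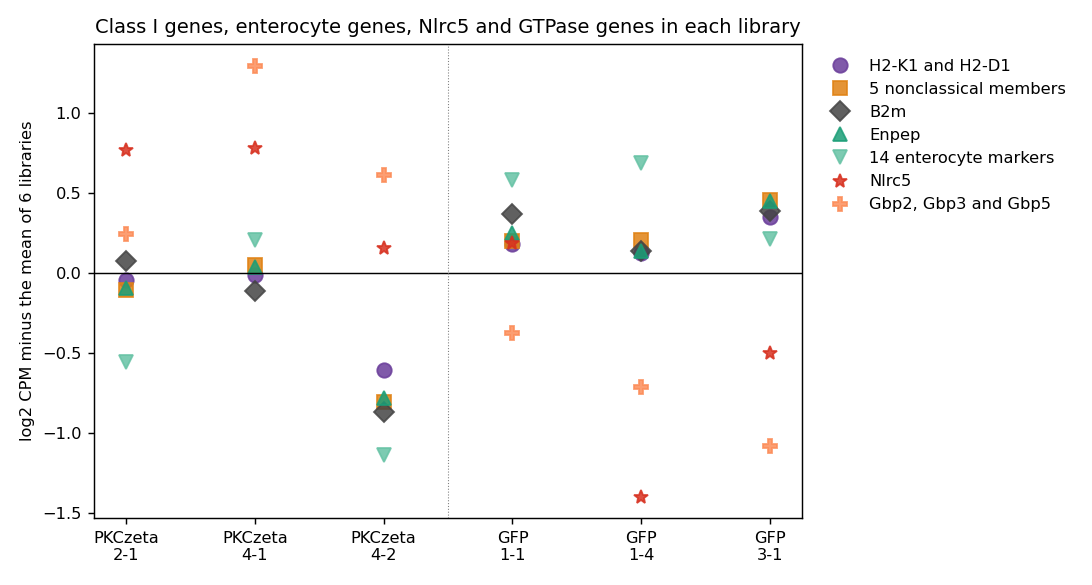
log2 CPM minus its mean over the 6 libraries (vertical axis) for class I chains, B2m, Enpep, 14 enterocyte markers, Nlrc5 and 3 GTPase genes, by library, PKCzeta left of GFP. The classical pair lies at -0.606 in PKCzeta replicate 4-2 and 0.350 in GFP replicate 3-1. In these 2 libraries the nonclassical members lie at -0.807 and 0.456, B2m at -0.868 and 0.388, and Nlrc5 at 0.155 and -0.499. Enpep was picked for its match to the class I chains in these same libraries, so its place near them follows from that choice. In PKCzeta replicates 2-1, 4-1 and 4-2 the enterocyte markers lie at -0.556, 0.207 and -1.14. The classical pair lies at -0.0427, -0.0107 and -0.606 there. In GFP replicates 1-1, 1-4 and 3-1 the enterocyte markers lie at 0.584, 0.693 and 0.217, and the classical pair at 0.180, 0.129 and 0.350.

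PKCzeta replicate 4-2 set much of the size of these differences. Without it the log2 fold change was -0.26 for H2-K1, -0.23 for H2-D1, -0.55 for H2-Q1, -0.58 for H2-Q2, -0.40 for H2-T3, -0.30 for H2-T23, -0.315 for B2m and -0.30 for Tap1, and 1.22 for Nlrc5. Tap1 also depended on other libraries, at -0.198 without GFP replicate 3-1 and -0.827 without PKCzeta replicate 2-1. The 6 members that did not overlap were the same ones without that library, beside 8.27% of all genes tested. Nlrc5 was then also without overlap, on the higher side, beside 6.76% of all genes. That library had the lowest mitochondrial share of reads, 2.90%, where the others ran from 3.35% to 10.7%.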

How the data were processed

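Total RNA of small intestine was sequenced in 3 PKCzeta and 3 GFP libraries. Per the labels' protocols, ribosomal RNA was depleted and libraries were stranded. The submitters' processing notes name FastQC, Trimmomatic, HISAT2, StringTie and the build mm10. How reads were counted, and whether by strand, is not stated there. The authors deposited raw read counts per gene, FPKM values per length and library size, and TPM values scaled to a fixed sum per library.

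The test on counts was that of edgeR 4.0.16 (R 4.3.3): filterByExpr, which kept 18456 genes, TMM scaling, and a robust quasi-likelihood F test, two-sided, with Benjamini-Hochberg adjustment over all genes tested and a threshold of 0.05. Deposited TPM served levels between genes, shares and 2 alternative tests in limma 3.58.1, and FPKM 1 alternative share. Other alternatives were other scalings and filters, DESeq2 1.42.0, limma voom, 1 surrogate variable from sva 3.50.0, leaving out each library, and omitting 759 rows (receptor segments, mitochondrial and ribosomal RNA genes). The counts of non-overlapping members under those were added after seeing the data. The edgeR script was first tested on simulated counts, with 250 changed genes of each fold. At the threshold it called 1.6% of changes of 1.5-fold, 11.6% of 2-fold and 74% of 4-fold, so most changes of 2-fold or less were missed. Positions count from 1 and come from RefSeq for GRCm38, by gene ID.

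The members and lists were chosen with earlier results of these data known. Named are all members, up to 3 genes per pathway list with the smallest p, all tested genes of lists of 6 or fewer, and the 3 genes most like each heavy chain class.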

Additional observations from a re-analysis of the deposited data

How the results depend on the processing

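DESeq2 called 87 genes where edgeR called 0, and no member among them. The other 9 tests, scalings and filters, and leaving out each library, called 0. Over the tests, scalings and filters each member kept its sign, with log2 fold changes of -0.472 to -0.26 for H2-K1, -0.939 to -0.748 for H2-Q2 and 0.671 to 1.41 for Nlrc5, and a smallest adjusted p of 0.384. On log2(TPM + 1) and log2(TPM + 0.1) the median of all genes moved to 0.141 and 0.234 (0.0355 in edgeR). Relative to these medians H2-K1 had -0.402 and -0.495. Leaving out each library gave -0.583 to -0.261 for H2-K1, -0.486 to -0.229 for H2-D1, -1.17 to -0.584 for H2-Q2, -0.105 to 0.229 for H2-Q4, -0.773 to -0.315 for B2m and 0.715 to 1.47 for Nlrc5. The contrast of classical with nonclassical chains ran from 0.0751 to 0.196 there, and the difference in classical share from 2.52 to 4.92 percentage points. With all listed heavy chain genes counted, the difference in share was 2.65 points. The groups then nearly met, at 65.0% in PKCzeta replicate 4-1 and 64.8% in GFP replicate 1-1. Members lower without overlap numbered 6 or 7 when a library was left out, beside 8.11% to 13.5% of all genes. On deposited TPM they numbered 4 (H2-D1, H2-Q1, H2-Q2 and B2m, beside 2.0% of all genes).

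Among named genes the sign turned for H2-Q4, Psmb5, Psmb6, Psmb8, Psme1 and Psme2b, and the cause was not tested. Psmb6 was 0.0126 in limma voom, 0.173 on log2(TPM + 1) and 0.175 on log2(TPM + 0.1). Psmb8 was 0.0041 and 0.00394, and Psme1 0.0742 and 0.0747, on those TPM scales. Psmb5 was -0.0578 with 1 surrogate variable. With a library left out, Psmb5 ran from -0.0606 to 0.223, Psmb6 from -0.147 to 0.0768, Psmb8 from -0.313 to 0.0224 and Psme2b from -0.325 to 1.02. DESeq2 called Gbp2, Gbp3, Gbp5 and Pirb (adjusted p 0.00772 to 0.0274), which edgeR did not. No paired analysis was possible because the groups share no replicate number.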
